A study of Mus musculus with 18 samples.

Results

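Dendritic cells and T cells instruct each other through surface molecules, and the transcripts of 6 of these were measured in 3 kinds of mouse spleen cell. The 6 genes were Cd80, Cd86, Icosl, Cd274, Cd40 and Cd83, chosen by name, and all probe sets that the platform annotation assigns to 1 of these symbols were taken. They had 10 probe sets, 7 on the U74A array, 3 on U74B and 0 on U74C. Of these, 8 could be tested, at least 1 for each gene, out of 23285 tested probe sets that represent 12193 genes. The populations were IKDC, short for interferon-producing killer dendritic cells, PDC, the plasmacytoid kind of dendritic cell, and cDC, the conventional kind, which the series design takes as the control. Each population had 2 samples, prepared separately, and each of the 6 samples was hybridised to all 3 array types of the Affymetrix U74 version 2 set. The labels record no treatment for any of them, and strain, age, number of animals and sorting gates are not given in the sources used here. Whether the 2 samples of a population came from separate animals is not stated either, so the p-values measure only the spread between these samples, which may be technical. RNA was amplified in a pair of rounds before labelling.

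A T cell that meets its antigen on a dendritic cell also needs a second signal. CD80 and CD86 give it through CD28 and are bound more tightly by the inhibitory receptor CTLA-4, ICOS ligand (Icosl) gives it through ICOS, and PD-L1 (Cd274) holds the T cell back through PD-1. CD40 works the other way round: it is the receptor through which CD40 ligand on a helper T cell activates the dendritic cell. CD83, a maturation marker, keeps MHC class II and CD86 on the cell surface by opposing their ubiquitination. Conventional dendritic cells are known as the strongest stimulators of naive T cells, plasmacytoid dendritic cells for type I interferon, and IKDC were described as cells with features of natural killer and dendritic cells.

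The 8 tested probe sets of the 6 genes had both cDC signals above the signals of all 4 IKDC and PDC samples. For 3 of them the filter on low signals fixed that order, since they reached a signal of 60 in cDC alone, and it held for the 5 others too. Among all tested probe sets 12.1% had this order. In IKDC versus cDC, 6 of the 8 were lower with an adjusted p under 0.05 (limma, Benjamini-Hochberg over all tested probe sets) and 0 higher. They belong to Cd86, Icosl, Cd274, Cd40 and Cd83. Over all tested probe sets, 2.92% were lower and 2.68% higher in that comparison. In PDC versus cDC, 5 of the 8 passed, all lower, from Cd86, Cd274, Cd40 and Cd83, against 1.92% lower and 1.73% higher among all tested probe sets. IKDC and PDC did not differ beyond the threshold at any of the 8, where 2.39% of all tested probe sets were called lower in IKDC and 2.06% higher. At an unadjusted p under 0.05 limma gave 0 of the 8 too, against 14.5% of all tested probe sets. Cd80 passed in no comparison.

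The median log2 difference of the 8 probe sets was -2.12 in IKDC versus cDC, -2.14 in PDC versus cDC and 0.06 in IKDC versus PDC. Over all tested probe sets it was -0.01, -0.01 and -0.02. Differences are on the scale log2(signal + 16), which understates changes of low signals, and a signal of 60 served as the floor. With probe sets that lay under the floor in a whole population set at their bound, the medians were -1.98, -1.91 and 0.06. A probe set was tested when at least 2 of the 6 arrays reached 60. Of the 8, Cd80 93906_s_at, Cd40 and Cd83 99434_at reached it in the cDC samples alone, so that those 3 entered the test through the population in which they are high. The comparisons with cDC share the cDC samples. In such bulk samples fewer cells that carry a transcript and less transcript per cell cannot be told apart.

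**Figure D1:**
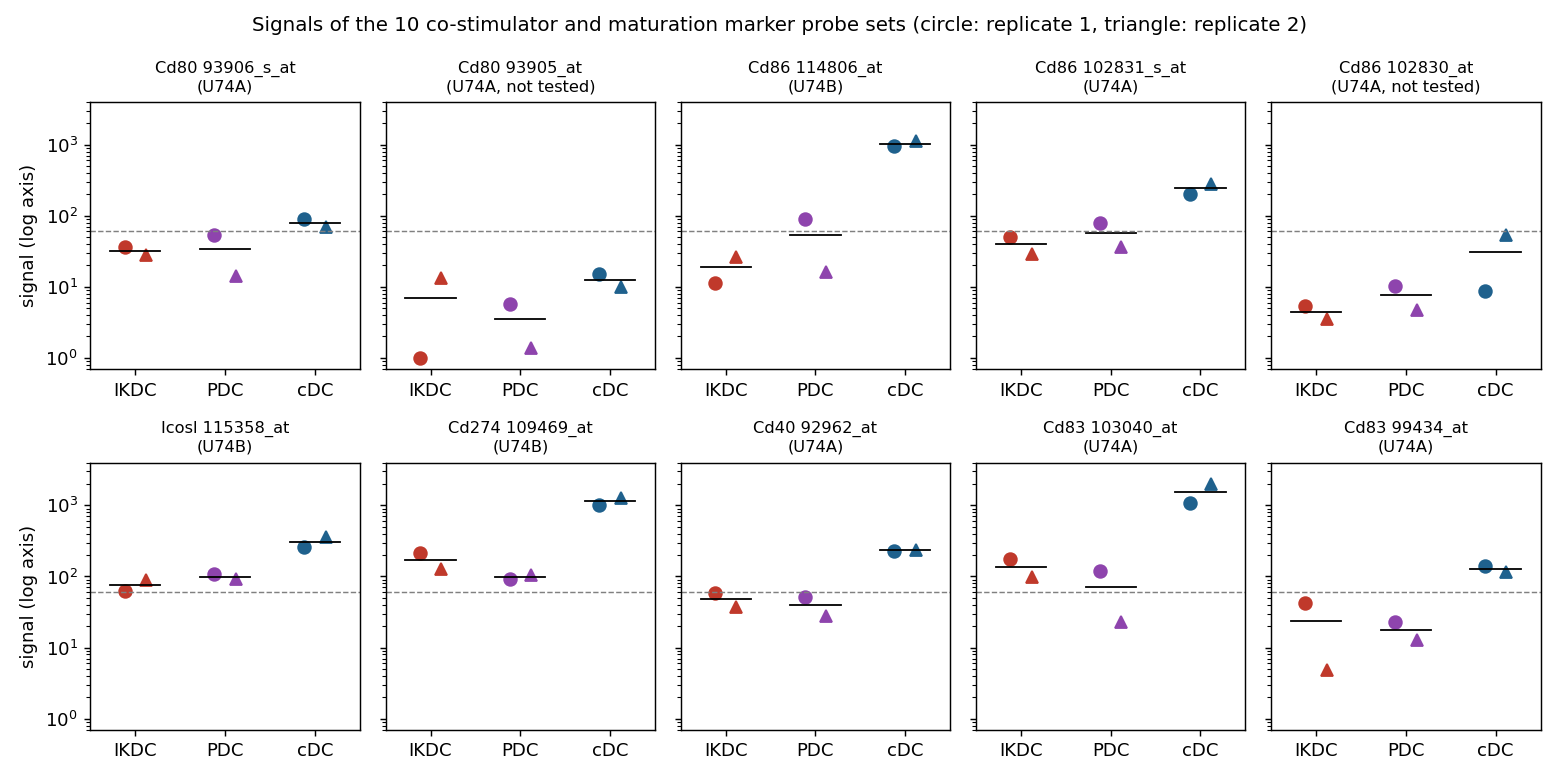
Signal of each of the 10 probe sets in the 2 IKDC, 2 PDC and 2 cDC samples (log axis, 1 panel a probe set, points are samples, solid lines are means, the dashed line is the floor of 60). The cDC points lie above all IKDC and PDC points in the 8 tested panels, by the widest margin in Cd86 114806_at and Cd83 103040_at.

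The arrays gave the following setting for these values. Signals are the deposited linear intensities, each array scaled to a common level of 150. The median signal per array was 51.7 to 87.3. Bacterial control probe sets without spiked RNA reached at most 45.2 on U74A but 122.7 on U74B, so that a U74B signal between 60 and 122.7 cannot be set apart from such controls. Of the marker genes fitted, all 8 of natural killer cells (Ncr1 and Eomes among them) were higher in IKDC than in cDC, all 10 of plasmacytoid cells (Siglech and Bst2 among them) were higher in PDC than in cDC, and 8 of 10 of conventional dendritic cells were lower in IKDC than in cDC. The shares over all genes were 3.5%, 2.25% and 4.07%. Of the 10 plasmacytoid markers, 2, Cox6a2 and Klk1, were called higher in IKDC than in cDC too. These lists were chosen with earlier results of these data known, so the counts are no test of identity. Itgax, which encodes CD11c, had signals of 1249 and 1359 in IKDC, 238.4 and 338.7 in PDC, and 1556 and 2614 in cDC. The median probe set of U74A was lower by 0.18 (log2) in IKDC than in cDC before any centring, by 0.13 in IKDC than in PDC, and the shift was under 0.1 in either direction elsewhere on U74A and U74B, which hold the 6 genes. All calls on the 6 genes reported here were kept when each array was centred on its median.

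Cd86, a ligand of CD28 and CTLA-4, had the most negative difference of these genes in IKDC versus cDC. On U74B, probe set 114806_at had signals of 11.4 and 26.4 in IKDC, 89.4 and 16.1 in PDC, and 950.1 and 1115 in cDC. Both IKDC signals lay within the range of the bacterial controls, as did both PDC signals, and PDC replicate 1 stood apart from PDC replicate 2. The log2 difference was -4.94 ± 0.56 (SE, adjusted p = 0.000695, limma) in IKDC versus cDC, which ranks 6 among the lowest of all tested probe sets. As a bound, Cd86 was at least 17.2-fold lower in IKDC than in cDC against the floor of 60, and at least 8.39-fold lower against the highest U74B control signal, a floor chosen after the data were seen. In PDC versus cDC the difference was -4.17 ± 0.56 (SE, adjusted p = 0.00296, limma), or at least 8.39-fold lower against the highest control. The IKDC call was kept in all 16 alternative settings run. The PDC call was lost when either cDC sample was left out, with limma adjusted p of 0.0517 without replicate 1 and 0.0665 without replicate 2.

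The other Cd86 probe sets lie on U74A, and the tested one gave smaller differences in the same direction. Probe set 102831_s_at, whose suffix marks probes that several transcripts can share, had signals of 50.2 and 29.3 in IKDC, 79.0 and 35.8 in PDC, and 204.9 and 280.2 in cDC. Both cDC signals lay above the other 4, while IKDC and PDC overlapped. The difference was -2.22 ± 0.41 (SE, adjusted p = 0.00789, limma) in IKDC versus cDC, at least 3.99-fold lower, and -1.87 ± 0.41 (SE, adjusted p = 0.0284, limma) in PDC versus cDC. These calls were less stable than those of 114806_at. The limma adjusted p in IKDC versus cDC became 0.0881 without IKDC replicate 2 and 0.107 without cDC replicate 2. In PDC versus cDC it became 0.118 without PDC replicate 2, 0.114 without cDC replicate 1 and 0.248 without cDC replicate 2, and it also missed the threshold with a pseudocount of 1 (0.0504) and with no filter on low signals (0.0546). Probe set 102830_at was under the floor in every sample, with 5.4 and 3.5 in IKDC, 10.4 and 4.7 in PDC, and 8.6 and 53.2 in cDC, and was not tested.

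Cd80, the other ligand of CD28 and CTLA-4, lay near or under the floor. Probe set 93906_s_at had signals of 36.4 and 27.7 in IKDC, 53.8 and 14.2 in PDC, and 90.4 and 69.0 in cDC. Both cDC samples were above the other 4, but the gap to PDC replicate 1 was smaller than the distance between the PDC samples. The log2 difference was -0.99 (95% interval -2.10 to 0.12, adjusted p = 0.326, limma) in IKDC versus cDC and -1.05 (-2.16 to 0.06, adjusted p = 0.372, limma) in PDC versus cDC. Neither passed in any of the 15 alternatives that tested this probe set. Against the floor, the cDC level bounds the difference at 1.32-fold or more for both. The second probe set, 93905_at, lay between 1.0 and 15.2 in all samples, under the floor, and was not tested.

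Icosl, the ligand of ICOS on activated and follicular helper T cells, was measured by 115358_at on U74B. Its signals were 62.5 and 89.5 in IKDC, 107.3 and 91.4 in PDC, and 263.2 and 354.9 in cDC. All 6 signals exceeded 60, yet all 4 outside cDC stayed under the highest control signal of that array type. The difference was -1.82 ± 0.38 (SE, adjusted p = 0.0206, limma) in IKDC versus cDC and -1.48 ± 0.38 (SE, adjusted p = 0.0683, limma) in PDC versus cDC, the second not past the threshold. Against the highest control signal Icosl was at least 2.49-fold lower in both populations. The IKDC call rested on every sample in it: the limma adjusted p was 0.142 without IKDC replicate 1, 0.0649 without IKDC replicate 2, 0.0834 without cDC replicate 1 and 0.161 without cDC replicate 2. The PDC difference passed in 1 of 16 alternatives, with a pseudocount of 64 (adjusted p = 0.0461).

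The promoter of Icosl is shown because the 6 genes ran in the same direction between populations and their start sites can be searched for motifs of factors known from dendritic cells. Windows of 300 bases, 250 before and 50 after the start site, came from RefSeq on the GRCm38.p6 build and were held for 3 of the 6 genes, Icosl, Cd274 and Cd80. Both strands were searched for an interferon regulatory factor (IRF) core, AANNGAAA, for the ETS core of PU.1, AGGAAGT, and for the NF-kB consensus. The Icosl stretch before the start is chr10:78069118-78069367 on the plus strand, with the NF-kB match in capitals, 111 to 102 bases before the start and on the minus strand. That consensus has a match in 8.46% of 32851 such mouse windows, and it overlaps neither other motif here.
Icosl: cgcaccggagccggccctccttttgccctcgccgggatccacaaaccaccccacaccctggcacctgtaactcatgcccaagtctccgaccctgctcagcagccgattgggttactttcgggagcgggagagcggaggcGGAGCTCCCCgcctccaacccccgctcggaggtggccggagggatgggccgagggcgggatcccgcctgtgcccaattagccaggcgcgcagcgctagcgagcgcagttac
The window was 68% G and C. It held no IRF core and no ETS core.

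Cd274, which encodes PD-L1, the ligand of the inhibitory receptor PD-1, was called in both comparisons with cDC. Probe set 109469_at on U74B had signals of 217.1 and 128.9 in IKDC, 92.2 and 105.0 in PDC, and 1000.2 and 1273 in cDC. Both IKDC signals lay above the highest control signal and above both PDC signals, which did not exceed that control. The log2 difference was -2.64 ± 0.32 (SE, adjusted p = 0.00111, limma) in IKDC versus cDC and -3.32 ± 0.32 (SE, adjusted p = 0.000415, limma) in PDC versus cDC. Both passed in all 16 alternatives. Against the highest control signal the PDC level was at least 9.19-fold lower than that of cDC. On this probe set the inhibitory ligand was lower outside cDC together with the activating ligand Cd86.

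The stretch before the start of Cd274 is chr19:29367188-29367437 on the plus strand (GRCm38.p6, RefSeq), and is shown for the IRF core, since Cd274 is known as an interferon target. Capitals mark the match, which reads AAACGAAA on the minus strand, 175 to 168 bases before the start.
Cd274: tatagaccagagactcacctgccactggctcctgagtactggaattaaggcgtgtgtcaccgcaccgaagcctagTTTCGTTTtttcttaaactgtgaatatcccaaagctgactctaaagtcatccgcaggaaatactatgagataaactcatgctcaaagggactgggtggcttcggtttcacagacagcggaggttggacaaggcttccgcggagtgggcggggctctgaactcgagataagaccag
The IRF core occurs in 23.9% of all windows, so that a match is common. The Cd274 window, 52.7% G and C, held no NF-kB consensus. The Cd80 window held an IRF core, 30 to 37 bases after the start, and no NF-kB consensus. The ETS core, found in 9.35% of windows, was in none of the 3. These matches are descriptions of the letters and say nothing of binding in these cells.

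Cd40, the receptor through which T cell help reaches the dendritic cell, was measured by 92962_at on U74A. The signals were 58.2 and 37.8 in IKDC, 51.8 and 28.2 in PDC, and 226.1 and 239.1 in cDC. The cDC samples lay close together, and the 4 other samples were all under the floor. Cd40 differed by -1.98 ± 0.38 (SE, adjusted p = 0.0101, limma) in IKDC versus cDC and by -2.18 ± 0.38 (SE, adjusted p = 0.00787, limma) in PDC versus cDC, at least 3.88-fold lower in both. The IKDC call was lost without IKDC replicate 2 (limma adjusted p = 0.118), cDC replicate 1 (0.0862) or cDC replicate 2 (0.101). The PDC call was lost without cDC replicate 1 (0.0778) or cDC replicate 2 (0.097).

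Cd83, the maturation marker, is represented by a pair of tested probe sets. Probe set 103040_at on U74A had signals of 174.3 and 97.6 in IKDC, 117.9 and 22.7 in PDC, and 1075 and 1996 in cDC. The replicates differed in every population, most in PDC, and still no population overlapped with cDC. The log2 difference was -3.33 ± 0.53 (SE, adjusted p = 0.00301, limma) in IKDC versus cDC. In PDC versus cDC it was -4.36 ± 0.53 (SE, adjusted p = 0.000732, limma), which ranks 7 among the lowest of all tested probe sets. The PDC call was kept in all 16 alternatives. The IKDC call was kept in 15 of 16, the exception being the fit without cDC replicate 2 (limma adjusted p = 0.0517).

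The second Cd83 probe set, 99434_at on U74A, had signals of 42.6 and 4.9 in IKDC, 23.0 and 12.6 in PDC, and 139.9 and 113.8 in cDC. Both cDC signals were again the highest, but the differences did not pass. The difference was -2.02 ± 0.56 (SE, adjusted p = 0.0612, limma) in IKDC versus cDC and -2.09 ± 0.56 (SE, adjusted p = 0.0709, limma) in PDC versus cDC, with a bound of at least 2.10-fold lower in both. The call depended on the setting: it passed in 7 of 15 alternatives in IKDC versus cDC and in 5 of 15 in PDC versus cDC. Among these were the fits without PDC replicate 1 (limma adjusted p = 0.043) and without PDC replicate 2 (0.0417) in the IKDC comparison, and without IKDC replicate 2 (0.0449) in the PDC comparison.

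**Figure D2:**
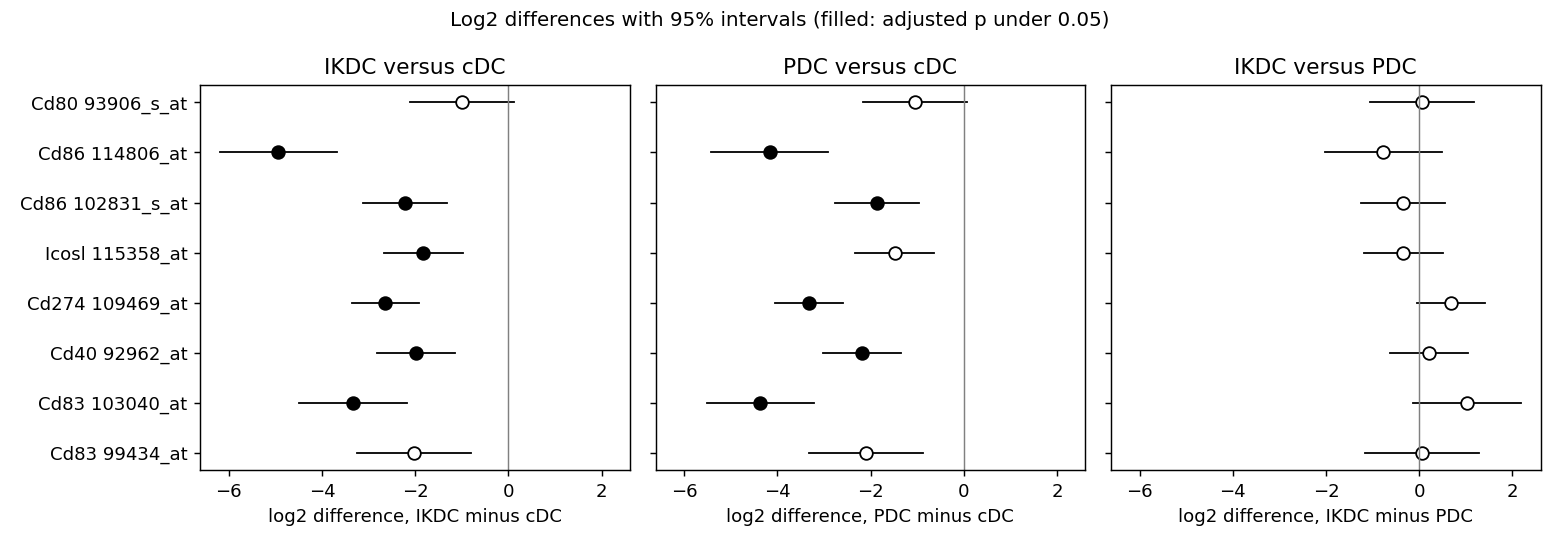
Log2 difference of the 8 tested probe sets in each comparison (points, filled where the adjusted p is under 0.05, with 95% intervals of the fit as bars). Intervals lie wholly under 0 for 7 of the 8 probe sets in IKDC versus cDC and in PDC versus cDC, and span 0 for all 8 in IKDC versus PDC.

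Between IKDC and PDC the tested probe sets of the 6 genes gave small differences with wide intervals, which does not show that the populations are alike. Cd83 103040_at had the largest, 1.03 higher in IKDC (95% interval -0.12 to 2.18, adjusted p = 0.417, limma). Without PDC replicate 1 the difference was 1.93 and passed (limma adjusted p = 0.044). Cd274 was 0.68 higher in IKDC (95% interval -0.04 to 1.41, adjusted p = 0.381, limma), with both IKDC signals above both PDC signals. Icosl ran the other way, with both PDC signals above both IKDC signals and a difference of -0.34 (95% interval -1.18 to 0.50, adjusted p = 0.77, limma). Cd86 114806_at had -0.77 (-2.03 to 0.49, adjusted p = 0.617, limma) and 102831_s_at -0.36 (-1.26 to 0.54, adjusted p = 0.778, limma). For Cd80 93906_s_at, Cd40 and Cd83 99434_at, all of them under the floor in both populations, the fitted differences were 0.06, 0.21 and 0.07 and carry no order. The signs of both Cd86 probe sets turned without PDC replicate 1.

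By mean signal of the lead probe set, the tested one with the highest mean of each gene, cDC stood first for all 6 genes. IKDC came before PDC for Cd274 and Cd83, without a difference beyond the threshold and with overlapping signals for Cd83. IKDC and PDC have no order for Cd40 and Cd80, where both lay under the floor, nor for Cd86 114806_at and Icosl, where all 4 signals lay under the highest U74B control. IKDC was called lower than cDC for Cd86, Icosl, Cd274, Cd40 and Cd83.

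Within each population, most of these probe sets leaned toward the same replicate. PDC replicate 1 exceeded PDC replicate 2 in 7 of the 8 tested, against 53.4% of all tested probe sets, and IKDC replicate 1 exceeded IKDC replicate 2 in 6, against 50%. The cDC samples leaned the other way, with replicate 2 above replicate 1 in 6 of the 8 and in 49% of all. Low signals limit the IKDC and PDC counts. Cd80 93906_s_at, Cd40 and Cd83 99434_at lay under the floor of 60 in all IKDC and PDC samples. Cd86 114806_at and Icosl lay under the highest U74B control there. In IKDC and PDC the replicates of these probe sets carry no order. Cd86 and Cd83 also entered with a pair of probe sets each. The ratio of the 3' to the 5' Gapdh control on U74A rises when RNA is degraded or its copies are cut short. It was 3.34 and 3.59 in IKDC, 5.996 and 3.19 in PDC, and 4.74 and 4.13 in cDC. PDC replicate 1 had the highest ratio, and its part in the higher signals of that sample was not tested.

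Around the 6 genes, the other ligands and accessory molecules that T cells meet on dendritic cells were called in few cases. Of 20 such genes 14 were on the arrays and 12 were tested. In IKDC versus cDC 1 of the 12 was lower and 0 higher, and in PDC versus cDC limma called 0 of the 12 (4 at an unadjusted p under 0.05, against 17.4% of all genes). The IKDC comparison with cDC had 5 of the 12 at an unadjusted p under 0.05, against 22.4% of all genes. The median difference was -0.22 in IKDC versus cDC and -0.47 in PDC versus cDC. Over all 12193 genes 4.07% were lower and 3.5% higher in IKDC versus cDC, and 2.75% lower and 2.25% higher in PDC versus cDC. The gene that passed was Btla, an inhibitory receptor of the CD28 family that binds HVEM, with signals of 227.6 and 83.8 in IKDC, 815.8 and 1355 in PDC, and 1263 and 2227 in cDC. It was high in PDC as well as in cDC. Btla differed by -3.44 ± 0.44 (SE, adjusted p = 0.00149, limma) in IKDC versus cDC and by -2.78 ± 0.44 (SE, adjusted p = 0.0058, limma) in IKDC versus PDC, in all 16 alternatives, and was the 1 gene of the group called in IKDC versus PDC. Among all genes 3.17% were lower and 2.71% higher in IKDC versus PDC.

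Genes known to be induced when dendritic cells mature were tested as a second group, 13 of 18 listed. In IKDC versus cDC 3 were lower and 0 higher, with a median of -1.03, and in PDC versus cDC 3 were lower and 0 higher, with a median of -0.85. The median over all genes was 0.01 and -0.000466, and 4.07% and 2.75% of all genes were called lower. At an unadjusted p under 0.05 limma gave 10 of the 13 in each comparison, against 22.4% and 17.4% of all genes. Il15ra (1.17) and Tnfaip3 (1.20) ran the other way in IKDC versus cDC, neither past the threshold. Socs2, a feedback inhibitor of cytokine signalling, had signals of 51.3 and 47.4 in IKDC, 87.1 and 39.2 in PDC, and 214.7 and 322.9 in cDC. It differed from cDC by -2.10 (adjusted p = 0.00871, limma) in IKDC, a bound of at least 4.39-fold, and by -1.89 (adjusted p = 0.0213, limma) in PDC. The call was lost in IKDC without IKDC replicate 1 (0.0595), IKDC replicate 2 (0.0701) or cDC replicate 2 (0.115), and in PDC without PDC replicate 2 (0.0903), cDC replicate 1 (0.0731) or cDC replicate 2 (0.221).

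Traf1, a signalling adaptor of TNF receptors such as CD40, separated PDC from both others. Its signals were 313.4 and 352.4 in IKDC, 79.5 and 60 in PDC, and 683.1 and 565.0 in cDC. It fell by 2.90 in PDC versus cDC (adjusted p = 0.000225, limma) and was 2.03 higher in IKDC than in PDC (adjusted p = 0.00164, limma), both in all 16 alternatives, while IKDC versus cDC gave -0.87 and did not pass (adjusted p = 0.121, limma). Traf1 was the 1 gene of the group that passed in IKDC versus PDC.

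The remaining maturation calls were weaker. Marcksl1, an actin-regulating protein, had signals of 65.3 and 94.6 in IKDC, 54.4 and 47.3 in PDC, and 196.6 and 251.5 in cDC. It differed from cDC by -1.33 (adjusted p = 0.0456, limma) in IKDC and by -1.84 (adjusted p = 0.0116, limma) in PDC. Il12b, which encodes the p40 subunit of interleukin 12, had 12.2 in both IKDC samples, 121.9 and 11.4 in PDC, and 163.6 and 136.6 in cDC. PDC replicate 1 lay near the cDC level and PDC replicate 2 near the IKDC level. In IKDC versus cDC the difference was -2.55 (adjusted p = 0.0402, limma), at least 2.49-fold lower. Marcksl1 and Il12b each passed in 6 of 15 alternatives in IKDC versus cDC. Leaving out IKDC replicate 1, IKDC replicate 2, cDC replicate 1 or cDC replicate 2 gave limma adjusted p of 0.335, 0.147, 0.14 and 0.247 for Marcksl1 and 0.154, 0.158, 0.232 and 0.162 for Il12b. With median centring they were 0.0899 and 0.0525, and with quantile normalization 0.0514 and 0.0567. In PDC versus cDC, Marcksl1 did not pass without cDC replicate 1 (0.0634) or cDC replicate 2 (0.139). The count of this group in IKDC versus cDC ranged over 0 to 5 across alternatives, and was 0 without IKDC replicate 1, without IKDC replicate 2 and without cDC replicate 2.

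**Figure D3:**
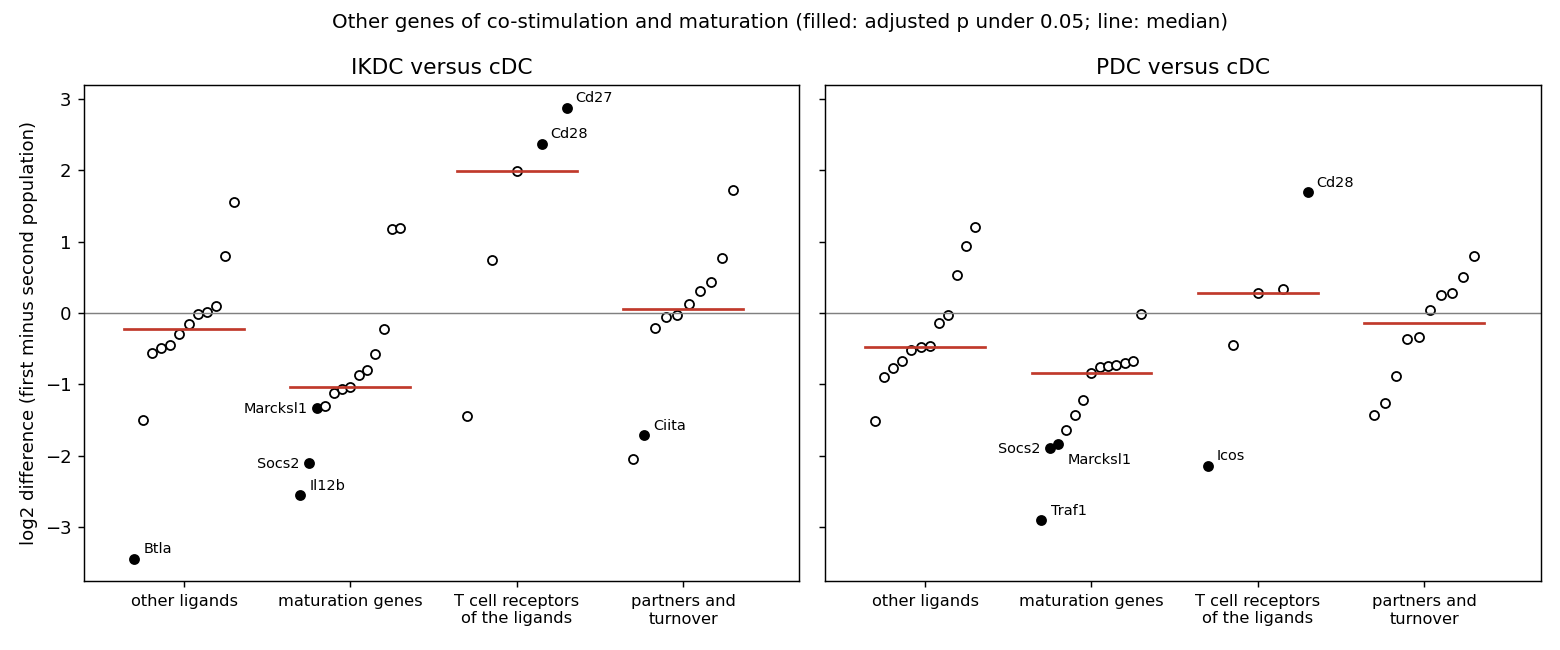
Log2 difference of each tested gene in 4 groups around the co-stimulators, in IKDC versus cDC and PDC versus cDC (points are genes, filled and named where the adjusted p is under 0.05, red lines are medians). Maturation genes sit mostly under 0, other ligands spread around 0, and among the T cell receptors Cd27 and Cd28 lie above 0.

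The receptors with which T cells bind these ligands were a further group, with 5 of 9 listed genes tested. In IKDC versus cDC 2 were higher and 0 lower, against 3.5% and 4.07% of all genes. In PDC versus cDC 1 was higher and 1 lower, against 2.25% and 2.75%. The medians were 1.99 and 0.28, and the first was 0.93 with genes under the floor at their bound. At an unadjusted p under 0.05 limma gave 5 and 2 of the 5 in these comparisons, against 22.4% and 17.4% of all genes. In IKDC versus PDC 2 were higher and 0 lower, against 2.71% and 3.17%. Cd28 had signals of 359.9 and 307.0 in IKDC, 183.0 and 223.2 in PDC, and 56.8 and 46.7 in cDC. It thus ran opposite to its ligand Cd86, at least 5.54-fold higher in IKDC than in cDC (log2 difference 2.37, adjusted p = 0.000729, limma) and at least 3.37-fold higher in PDC (1.69, adjusted p = 0.00912, limma). The PDC call was lost without cDC replicate 2 (adjusted p = 0.0817, limma).

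Cd27, the receptor of CD70 on T and natural killer cells, had signals of 758.1 and 854.1 in IKDC, 177.1 and 79.3 in PDC, and 117.0 and 78.0 in cDC. It was 2.88 higher in IKDC than in cDC (adjusted p = 0.00073, limma) and 2.60 higher than in PDC (adjusted p = 0.00158, limma), in all 16 alternatives. Tnfrsf9, which encodes 4-1BB, had 122.3 and 107.1 in IKDC, 10.7 and 5.9 in PDC, and 7.0 and 31.1 in cDC. It was higher in IKDC than in PDC by 2.43 (adjusted p = 0.0264, limma), at least 1.91-fold. That call was lost without IKDC replicate 1 (0.304), IKDC replicate 2 (0.25) or PDC replicate 2 (0.0616), and with a pseudocount of 1 (0.0741). Icos was highest in cDC, with 73.0 and 200.2 in IKDC, 78.9 and 61.7 in PDC, and 301.4 and 434.2 in cDC, and fell by 2.14 in PDC versus cDC (adjusted p = 0.0343, limma). The Icos call was lost without PDC replicate 1 (0.0742), PDC replicate 2 (0.128), cDC replicate 1 (0.129) or cDC replicate 2 (0.263), with no filter on low signals (0.0558) and with no intensity trend (0.0842). Of the T cell markers fitted, 1 of 5, Cd3g, was higher in IKDC than in cDC, and their summed signal was 1019 and 720.7 in IKDC, 591.3 and 388.2 in PDC, and 619.4 and 392.2 in cDC. Their part in the Cd28 and Icos signals was not tested.

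Genes that act on the 6 molecules or below them, CD40 adaptors, ubiquitin ligases and transcription factors, were called in 1 case. Of 13 listed 10 were tested, and 1 was lower in IKDC versus cDC, against 4.07% of all genes. In PDC versus cDC limma called 0 (4 at an unadjusted p under 0.05) and in IKDC versus PDC 0 (3 at an unadjusted p under 0.05), against 17.4% and 17.3% of all genes at that p. The medians were 0.05, -0.15 and 0.12. The gene that passed was Ciita, the master regulator of MHC class II genes, with signals of 62.5 and 78.7 in IKDC, 60.8 and 128.0 in PDC, and 312.3 and 227.6 in cDC. It fell by 1.71 in IKDC versus cDC (adjusted p = 0.0209, limma). That call was lost without IKDC replicate 1 (0.161), IKDC replicate 2 (0.0919), cDC replicate 1 (0.179) or cDC replicate 2 (0.076), and with median centring (0.0661).

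Genes with the most similar profile over the 6 samples were found for each lead probe set among 12192 other genes, by the root mean square difference of log2(signal + 16) after each profile was centred on its mean. The profiles share the samples and their depth of signal, and the distances are descriptions. Cd274 was nearest to Rasgrp3 (0.160), Abca9 (0.187) and Tlr1 (0.192). Rasgrp3 had signals of 215.4 and 108.3 in IKDC, 88.0 and 95.2 in PDC, and 1118 and 1513 in cDC, with both cDC samples high and IKDC replicate 1 above the 3 other low samples, as for Cd274. Icosl was nearest to Adamtsl4 (0.131), H2-M2 (0.134) and Nostrin (0.157). Cd40 was nearest to Gm9999 (0.151), Afdn (0.195) and Ccrl2 (0.199). For Cd80 the nearest were 2700046A07Rik (0.0969), Serpina10 (0.119) and Fscn1 (0.160), the last of them in the maturation group.

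Cd86 and Cd83 had no neighbours that close. The distance is not scaled to the span of a profile, which ran from 11.4 to 1115 for Cd86 114806_at and from 22.7 to 1996 for Cd83 103040_at. Larger distances therefore do not show that these patterns are less shared. Cd86 was nearest to Il1r2 (0.419), Mmp12 (0.468) and Adam8 (0.492), and Mmp12 had signals of 38.1 and 30.6 in IKDC, 89.8 and 32.3 in PDC, and 1854 and 2780 in cDC. Cd83 was nearest to Egr1 (0.508), Ptgs2 (0.571) and Ryr3 (0.572). Egr1 and Ptgs2 are known as immediate early genes. Egr1 had signals of 463.7 and 224.4 in IKDC, 288.6 and 116.4 in PDC, and 1535 and 2383 in cDC, with replicate 1 the higher in IKDC and PDC and replicate 2 in cDC, as for Cd83.

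Most monocyte and macrophage markers were highest in the cDC samples, as were the 6 genes. Of 9 tested 8 were lower in IKDC than in cDC and 6 lower in PDC than in cDC, and their summed signal was 641.1 and 588.6 in IKDC, 2372 and 2552 in PDC, and 5501 and 6515 in cDC. Csf1r, the receptor of macrophage colony-stimulating factor, had 75.3 and 62.3 in IKDC, 158.4 and 107.2 in PDC, and 1406 and 1237 in cDC. Cd68 was highest in PDC, with 142 and 161.1 in IKDC, 1335.8 and 1944 in PDC, and 806.1 and 845.5 in cDC. C1qb overlapped between PDC (329.2 and 137.6) and cDC (294.1 and 209). Conventional dendritic cell markers summed to 7692 and 5896 in IKDC, 29703 and 30299 in PDC, and 71159 and 60695 in cDC. In PDC and cDC the MHC class II pathway genes H2-Aa, H2-Eb1, Cd74 and H2-Ab1 had the highest signals in that sum. Batf3 had 112.4 and 59.3 in PDC against 1124 and 1099 in cDC, while Flt3 had 1918 and 2219 against 2388 and 2705. Of the 10 markers, 6 were called lower and 0 higher in PDC than in cDC, against 2.75% and 2.25% of all genes. The part of monocytes and macrophages in the cDC signals of the 6 genes was not tested.

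B cells also carry CD80, CD86, CD40, CD83 and ICOS ligand. Of 6 B cell markers tested, 0 passed in IKDC versus cDC by limma (3 at an unadjusted p under 0.05, against 22.4% of all genes), and 1, Cd22, was lower in PDC than in cDC. Their sum was 2162 and 852.5 in IKDC, 1234 and 634.4 in PDC, and 957.4 and 876.8 in cDC, highest in IKDC replicate 1 and PDC replicate 1. Cd83, Cd40, Cd80 93906_s_at and Cd86 102831_s_at were also higher in replicate 1 of both populations. Of these, Cd40, Cd80 93906_s_at and Cd83 99434_at lay under the floor of 60 in all IKDC and PDC samples. Cd86 102831_s_at did so in all but PDC replicate 1 (79.0). Cd86 114806_at and Icosl were lower in replicate 1 than in replicate 2 of IKDC and higher in replicate 1 of PDC. Their IKDC and PDC signals all lay under the highest U74B control. Cd274 was higher in replicate 1 of IKDC and lower in replicate 1 of PDC. The part of B cells in the signals of the 6 genes was not tested. Erythroid transcripts ran against the 6 genes, with all 3 tested higher in IKDC and in PDC than in cDC and sums of 14211 and 16773 in IKDC, 22262 and 9365 in PDC, and 671.9 and 1661 in cDC. Their part in these signals was not tested.

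**Figure D4:**
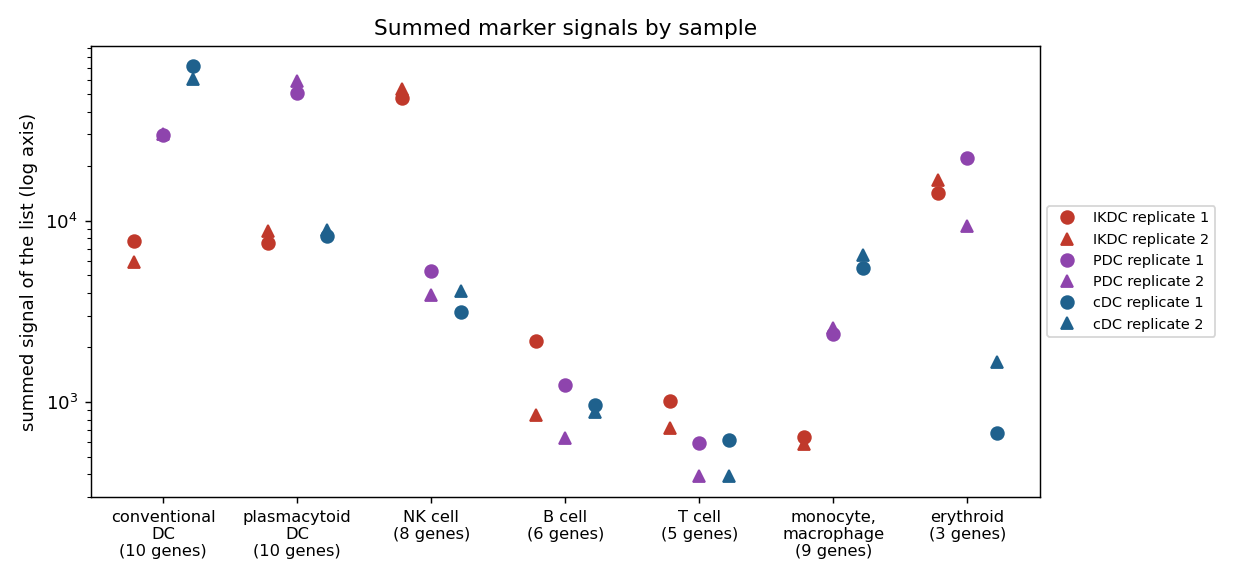
Summed signal of 7 marker lists in each sample (log axis, circles replicate 1, triangles replicate 2). Conventional dendritic and monocyte or macrophage sums are highest in both cDC samples, natural killer sums in both IKDC samples and plasmacytoid sums in both PDC samples.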

How the data were processed

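The deposited values are probe set signal intensities on a linear scale. Per the labels, GCOS 1.1.1 made them with its defaults and brought each array to a target intensity of 150, and the submitters' processing notes name MAS5. No genome build is given in the sources used here. Scaling to a common level makes every difference relative to total signal, and amplification in a pair of rounds favours the 3' ends of transcripts. No detection calls were used. The number of arrays limits the precision.

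Groups and replicate numbers came from the sample titles. Signals were taken as log2(signal + 16). Array types were fitted separately by lmFit and then eBayes with its trend option (limma 3.58.1, R 4.3.3), 1 model for all 3 populations. Control probe sets (198 of 36899) were left out. Probe sets with a signal of at least 60 on at least 2 of 6 arrays were tested (23285 of 36701), and p-values were adjusted over all array types by Benjamini-Hochberg with a threshold of 0.05. A probe set under 60 on both arrays of a population has only a bound there, given as the geometric mean of the other population's signals over 60. The script was tested on simulated data.

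Symbols came from the platform annotation. Of the 36701 probe sets 29131 had 1 symbol, 724 several and 6846 none, and probe sets with several named no gene. The text names every probe set of the 6 genes, the genes past the threshold in 4 groups around them, and for each lead probe set the 3 nearest profiles. The gene and marker lists and their members were chosen with earlier results of these data known. Alternatives were other pseudocounts, filters, scalings and adjustments, a replicate block, a fit of 2 populations, no intensity trend, and leaving out each sample.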

Additional observations from a re-analysis of the deposited data

How the results depend on the processing

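Over 15 or 16 alternatives per result, every probe set of the 6 genes kept its direction in both comparisons with cDC. In IKDC versus cDC 109 values kept their side of the threshold, 10 lost it and 7 gained it, and in PDC versus cDC 111 kept it, 9 lost it and 6 gained it. Without 1 sample the count of called probe sets of the 6 genes ran from 2 to 7 in IKDC versus cDC (3 without IKDC replicate 2, 2 without cDC replicate 2), from 2 to 6 in PDC versus cDC (2 without either cDC replicate) and from 0 to 1 in IKDC versus PDC (1 without PDC replicate 1). The count over all probe sets ran from 593 to 1656, from 327 to 719 and from 493 to 869. Fewer samples enter these fits. In the other alternatives the 6 genes gave 6 to 7, 4 to 7 and 0 calls. With a replicate block the counts were 7, 6 and 0, and over all probe sets 1650, 1055 and 1223. Differences between replicates of the same number correlated weakly across populations (r from -0.0862 to 0.235). This cannot show whether samples of the same number were paired, and the sample titles do not say. Signs turned only in IKDC versus PDC and only where nothing was called: Cd80 93906_s_at to -0.000414 with a pseudocount of 64 and Cd83 99434_at to -0.17 with a pseudocount of 1. Without 1 sample, Cd80 93906_s_at ranged from -0.54 to 0.66, Cd86 114806_at from -1.63 to 0.087, Cd86 102831_s_at from -0.79 to 0.080, Cd40 from -0.10 to 0.52 and Cd83 99434_at from -0.68 to 0.81. The cause was not tested. Signals near those of unspiked controls limit Cd80, Icosl, Cd274 in PDC, and the low side of Cd86, Cd40 and Cd83 99434_at.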
